A study of Homo sapiens with 6 samples.

Results

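The unfolded protein response (UPR) and protein folding in the endoplasmic reticulum (ER) were examined through 40 genes, chosen by name, of the 25940 gene names on the array. They were represented by 56 of 34127 probes. The genes comprise ER stress sensors, transcription factors, outputs of the ATF4 branch, chaperones, lectins, disulfide isomerases and oxidases, factors of ER-associated degradation (ERAD) and translocon subunits. They were compared between 2 lines of T47D (in the methods, its subline T47Dco), a luminal human breast cancer cell line with estrogen and progesterone receptors. pLUM are pure luminal cells (receptor positive and negative for CK5, a basal cytokeratin), derived from a xenograft of an estrogen (E) treated, ovariectomized NSG mouse, sorted as CLD3+ CD49f-, kept in E and treated with 1 nM E for 72 h. pLB are pure luminobasal cells (receptor negative and CK5 positive), derived from a xenograft of a mouse that received E plus progesterone, sorted as CLD3- CD49f+ and kept under estrogen withdrawal (EWD). Each line is a single derivation, and both share the T47D background. Cells of both lines were fixed, stained for CK5 and sorted again, and RNA from 3 sorts of each line was hybridized to 1-colour Agilent arrays.

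In cells with a secretory load, unfolded proteins in the ER draw the chaperone BiP (HSPA5) away from the sensors IRE1 (ERN1), PERK (EIF2AK3) and ATF6. IRE1 splices XBP1 mRNA, ATF6 is cut to release a transcription factor, and PERK slows translation while favouring ATF4 and its target CHOP (DDIT3). XBP1 and ATF6 are known to raise chaperones, isomerases and ERAD factors, whereas ATF4 raises genes of amino acid supply and redox balance. The arrays measure mRNA only, so that splicing of XBP1, cleavage of ATF6 and phosphorylation by PERK were not measured.

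Signals are given as log2 of a probe's normalized signal, that is, its intensity divided by the 75th percentile of its array, and arrays are listed in the order of replicates 1, 2 and 3. A gene was called when its probe with the highest mean differed at least 2-fold with a Benjamini-Hochberg adjusted p under 0.05 from limma, fitted over all tested probes. All 40 genes and 54 of their 56 probes passed the filter (a signal well above background on 3 arrays or more), ERN1 only through pLB. Of 17670 genes tested, 45.7% were called, which is the background for every count here. Of the 40 genes, 20 were called: 19 were higher in pLB, against 22.7% of all genes, and 1 was lower, against 23.0% of all genes. Without ERN1, which is only described, 18 of 39 genes were higher and 1 was lower. The median log2 fold change of the 40 genes was 0.93 (0.91 without ERN1), whereas that of all tested genes was 0.035. The signals of the lines were separate, with no overlap, in 29 of the 40 genes and in 69.1% of all genes. A further 6 genes, TRIB3, HSP90B1, P4HB, EDEM2, DERL1 and SSR1, passed the adjusted p but were less than 2-fold higher. By role, 13 of the 17 chaperones, lectins, isomerases and oxidases were called higher, none of the 9 ERAD genes was called, and the only gene called lower was the transcription factor CREB3L4. The difference between roles was not tested.

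**Figure D1:**
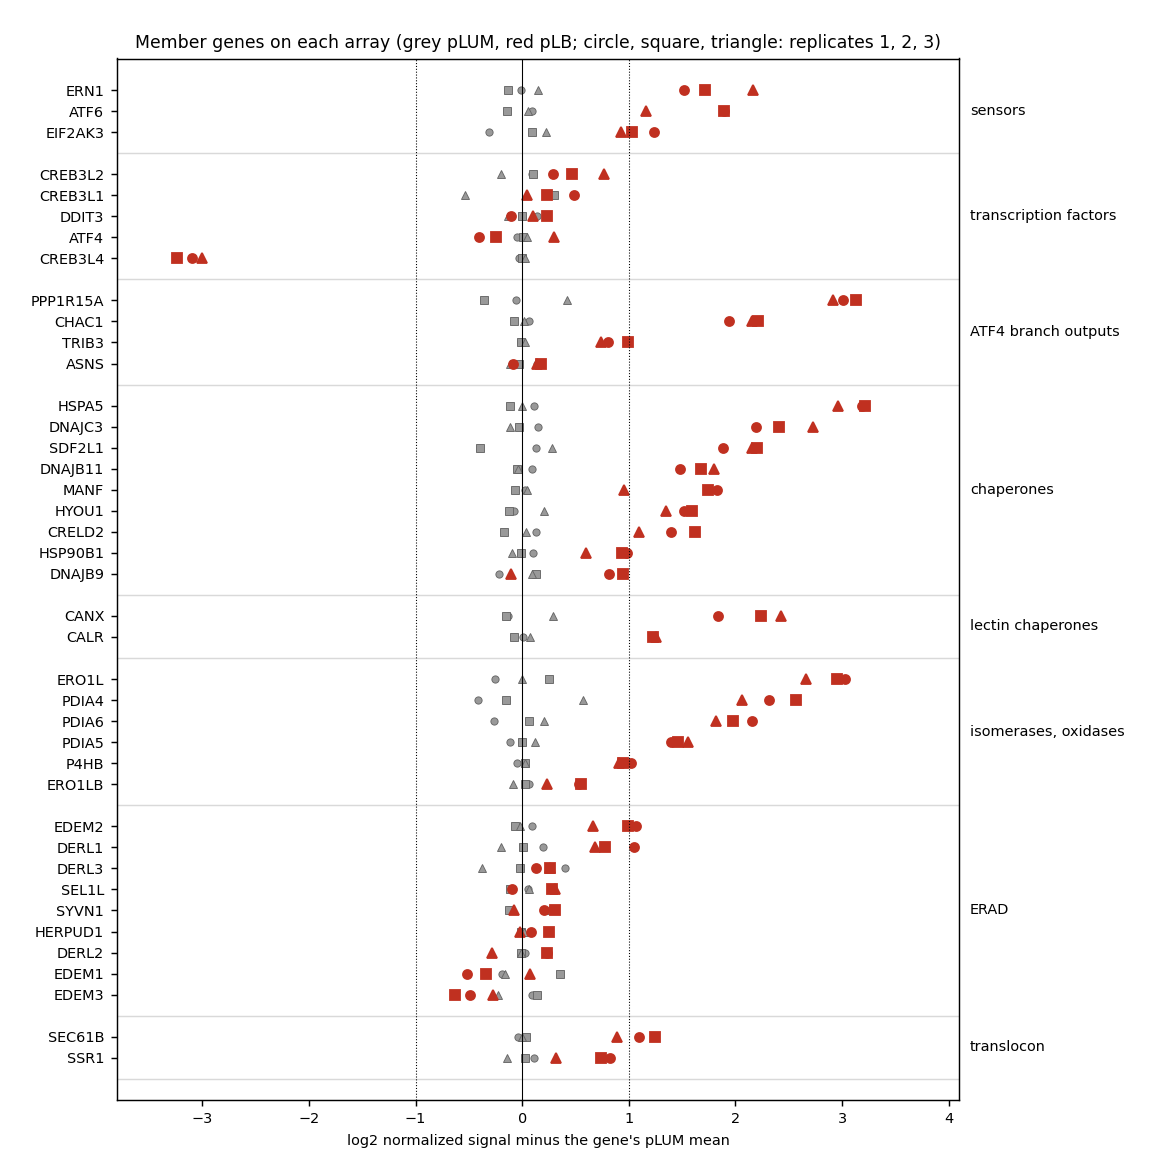
Normalized signal (log2) of each of the 40 genes on each array, given as the difference from that gene's pLUM mean, with pLUM in grey, pLB in red and circles, squares and triangles for replicates 1, 2 and 3. Dotted lines mark 2-fold; HSPA5 lies near 3.12 and CREB3L4 near -3.11, whereas the changes of the ERAD genes range from -0.47 to 0.91.

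Sites for the UPR factors are known in the promoters of many of these genes, and RefSeq promoter windows (GRCh38.p14, 250 bases before to 50 after the start site) matched 38 of the 40 genes. DERL1 and DERL3 were not matched. The windows were searched on both strands for the ER stress response element (ERSE, CCAAT and CCACG with 9 bases between), for ERSE-II (ATTGG and CCACG with 1 base between), for the ATF6/XBP1 site (TGACGTGG) and for the ATF4 composite site (TGATGNAA). The ERSE was present in 6 of the 38 windows, those of HSPA5, HSP90B1, CRELD2, CALR, CANX and ERO1LB, and in 0.0806% of all 27305 windows. ERSE-II was present in the windows of HYOU1, SDF2L1 and HERPUD1, and in 0.0549% of all windows. The 250 bases before the start are printed for 3 genes with such a match that were called higher and 3 that were not called. The fixed letters of each element are in capitals. On the opposite strand an ERSE reads CGTGG first and ATTGG last. HSPA5 (chr9:125241344-125241593, minus strand), CANX (chr5:179698679-179698928, plus strand) and HYOU1 (chr11:119057206-119057455, minus strand) were called higher, HYOU1 not with normexp (log2 change 0.49). The HYOU1 window holds 2 copies of ERSE-II.
HSPA5: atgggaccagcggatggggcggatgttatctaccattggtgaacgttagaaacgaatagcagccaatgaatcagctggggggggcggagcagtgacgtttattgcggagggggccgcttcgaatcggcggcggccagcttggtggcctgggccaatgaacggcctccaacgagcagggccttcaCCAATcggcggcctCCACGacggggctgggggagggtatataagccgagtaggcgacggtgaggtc
CANX: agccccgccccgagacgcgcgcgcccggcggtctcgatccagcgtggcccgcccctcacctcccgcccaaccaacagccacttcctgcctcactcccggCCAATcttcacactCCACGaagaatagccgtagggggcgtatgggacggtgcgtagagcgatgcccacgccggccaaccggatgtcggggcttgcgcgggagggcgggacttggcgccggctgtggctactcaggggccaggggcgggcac
HYOU1: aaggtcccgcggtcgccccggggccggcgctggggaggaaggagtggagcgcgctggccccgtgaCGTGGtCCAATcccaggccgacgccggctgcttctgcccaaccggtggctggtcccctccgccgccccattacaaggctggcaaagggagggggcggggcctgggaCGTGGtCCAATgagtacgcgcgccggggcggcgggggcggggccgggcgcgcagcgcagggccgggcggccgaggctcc
HSP90B1 (chr12:103930160-103930409, plus strand, with 2 copies of the ERSE), ERO1LB (chr1:236281959-236282208, minus strand) and HERPUD1 (chr16:56931892-56932141, plus strand) were not called. Of these, HSP90B1 passed the adjusted p at 1.79-fold higher in pLB, and its separate probe was called higher at 2.16-fold.
HSP90B1: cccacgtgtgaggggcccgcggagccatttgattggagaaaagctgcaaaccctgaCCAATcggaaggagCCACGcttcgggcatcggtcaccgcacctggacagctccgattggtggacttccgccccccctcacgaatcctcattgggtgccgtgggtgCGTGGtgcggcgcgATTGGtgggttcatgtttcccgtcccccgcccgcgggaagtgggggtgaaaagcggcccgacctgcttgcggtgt
ERO1LB: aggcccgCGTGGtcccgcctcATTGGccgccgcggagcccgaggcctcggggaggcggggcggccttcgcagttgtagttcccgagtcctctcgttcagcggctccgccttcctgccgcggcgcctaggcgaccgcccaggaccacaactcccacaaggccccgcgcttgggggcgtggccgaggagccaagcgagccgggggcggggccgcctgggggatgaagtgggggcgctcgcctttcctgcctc
HERPUD1: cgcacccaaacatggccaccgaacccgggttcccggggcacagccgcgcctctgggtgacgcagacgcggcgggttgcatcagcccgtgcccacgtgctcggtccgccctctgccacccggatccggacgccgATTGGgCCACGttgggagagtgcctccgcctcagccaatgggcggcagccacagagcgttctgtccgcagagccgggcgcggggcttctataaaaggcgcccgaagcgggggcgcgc

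Of the 9 genes with an ERSE or ERSE-II, 6 were called higher and 3 were not called, and their median log2 fold change was 1.37. Of the 29 matched genes with neither element, 13 were called higher, 1 was called lower and 15 were not called, with a median of 0.91. These 29 and the 13 called higher include ERN1, which is only described. The difference between genes with and without an element was not tested. The ATF6/XBP1 site occurred in 1 member window, that of HYOU1, where it shares 5 bases with an ERSE-II, and in 0.795% of all windows. The ATF4 composite site occurred in the windows of ASNS, CHAC1 and HERPUD1 and in 3.67% of all windows. Of these only CHAC1 was called. The CCAAT box alone, which is part of the ERSE, was common, in 26 of 38 member windows and 35.7% of all windows. Only exact matches were counted, so that a variant of an element would be missed. A match describes letters and not occupancy by a factor.

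**Figure D2:**
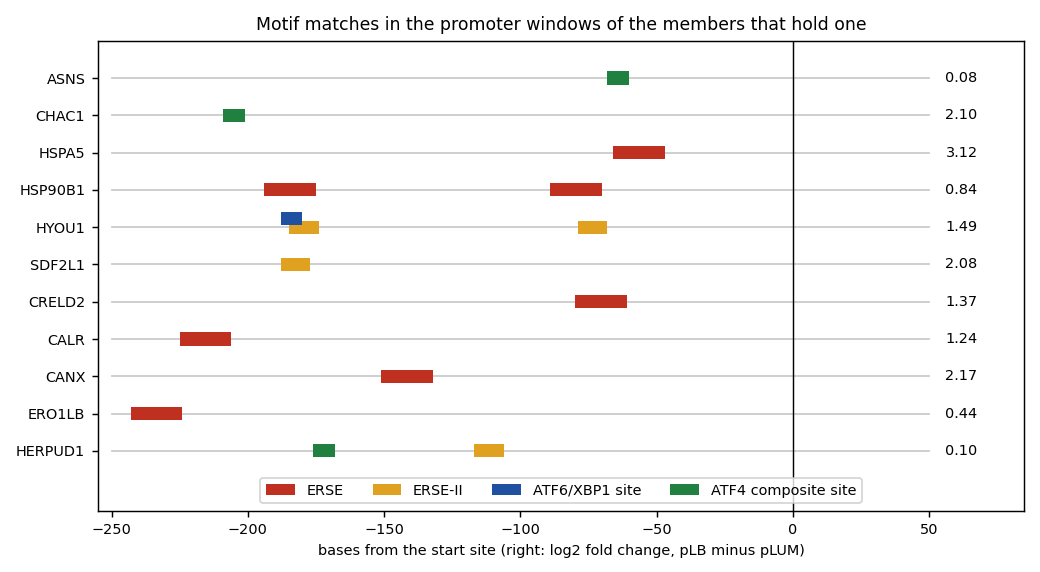
Positions of motif matches in bases from the start site, in the promoter windows of the 11 genes that hold one, with the log2 fold change (pLB minus pLUM) of each gene at the right. Genes with an ERSE (red) or ERSE-II (yellow) range from 0.10 for HERPUD1 to 3.12 for HSPA5.

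Of the 3 sensors, ATF6 was higher in pLB under both background corrections, whereas ERN1 and EIF2AK3 had dim signals and passed the thresholds under the array software's correction but not under normexp. ATF6, the sensor that becomes a transcription factor, read 0.79, 0.55 and 0.75 in pLUM and 2.59, 2.59 and 1.86 in pLB. Every pLB array lay above every pLUM array, and ATF6 was 3.13-fold higher (log2 change 1.65, 95% interval 1.09 to 2.21, adjusted p = 0.000736). ERN1, which encodes the IRE1 kinase and endonuclease, read -5.64, -5.76 and -5.48 in pLUM and -4.11, -3.91 and -3.45 in pLB. It was well above background on 3 of 3 pLB arrays but on 0 of 3 in pLUM, so that it passed the filter only through the line where it was brighter, and its values are a description. Against the lowest signal well above background it was at least 2.94-fold higher under the array software's correction. For a bound of this kind, each dim signal was raised to the lowest signal counted as well above background on its array wherever it was below that, and the line means were then compared. EIF2AK3, which encodes PERK, read -4.83, -4.43 and -4.30 in pLUM and -3.28, -3.49 and -3.59 in pLB. Its arrays did not overlap, and it was 2.09-fold higher (log2 change 1.07, 95% interval 0.60 to 1.53, adjusted p = 0.00264). With normexp the log2 change was -0.071 for ERN1 and -0.039 for EIF2AK3, so that neither direction nor bound held, whereas that of ATF6 was 1.62. EIF2AK3 was also under 2-fold without pLUM replicate 1 (0.91) or without pLB replicate 1 (0.98).

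Among the 5 transcription factors none was called higher. ATF4, the factor translated when PERK is active, read 6.95, 7.00 and 7.04 in pLUM and 6.59, 6.75 and 7.30 in pLB, and the pLUM arrays lay within the wider pLB range. Its log2 change was -0.12, with a 95% interval of -0.63 to 0.39. DDIT3, which encodes the proapoptotic factor CHOP, read 0.82, 0.68 and 0.54 in pLUM and 0.58, 0.91 and 0.78 in pLB. These ranges overlapped, and the log2 change was 0.08 (95% interval -0.33 to 0.48). CREB3L1 and CREB3L2, membrane-bound relatives of ATF6 that are known from secretory cells, had log2 changes of 0.25 and 0.51, neither of which was called (adjusted p = 0.43 and 0.0511). CREB3L4, another ER-anchored member of that family, known from prostate epithelium, was the single gene that fell. It read 5.44, 5.46 and 5.49 in pLUM and 2.36, 2.22 and 2.46 in pLB, an 8.66-fold decrease with no overlap (log2 change -3.11, 95% interval -3.48 to -2.75, adjusted p = 4.46e-06). A separate CREB3L4 probe read 2.40, 2.74 and 2.64 in pLUM and -0.39, -0.45 and 0.29 in pLB, 6.87-fold lower in pLB.

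The 4 outputs of the ATF4 branch divided into genes that rose and genes that did not pass both thresholds. PPP1R15A, which encodes the phosphatase subunit GADD34 that reverses the action of PERK, read -3.59, -3.89 and -3.11 in pLUM and -0.52, -0.40 and -0.62 in pLB. The lowest pLB array was far above the highest pLUM array, and PPP1R15A was 8.09-fold higher (log2 change 3.02, 95% interval 2.48 to 3.55, adjusted p = 2.98e-05). Its pLUM signals were dim, and with normexp the log2 change was 1.73, still called. CHAC1, an enzyme that degrades glutathione, read -0.57, -0.71 and -0.61 in pLUM and 1.31, 1.58 and 1.53 in pLB. It was 4.29-fold higher, again with no overlap (95% interval of the log2 change 1.73 to 2.48, adjusted p = 3.09e-05). TRIB3, a pseudokinase that restrains ATF4, read 4.90, 4.89 and 4.92 in pLUM and 5.71, 5.89 and 5.64 in pLB; it was higher on every pLB array but by 1.80-fold only. ASNS, asparagine synthetase, read 5.49, 5.32 and 5.24 in pLUM and 5.27, 5.53 and 5.49 in pLB. The lines overlapped for ASNS, with a log2 change of 0.08 (95% interval -0.31 to 0.47).

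**Figure D3:**
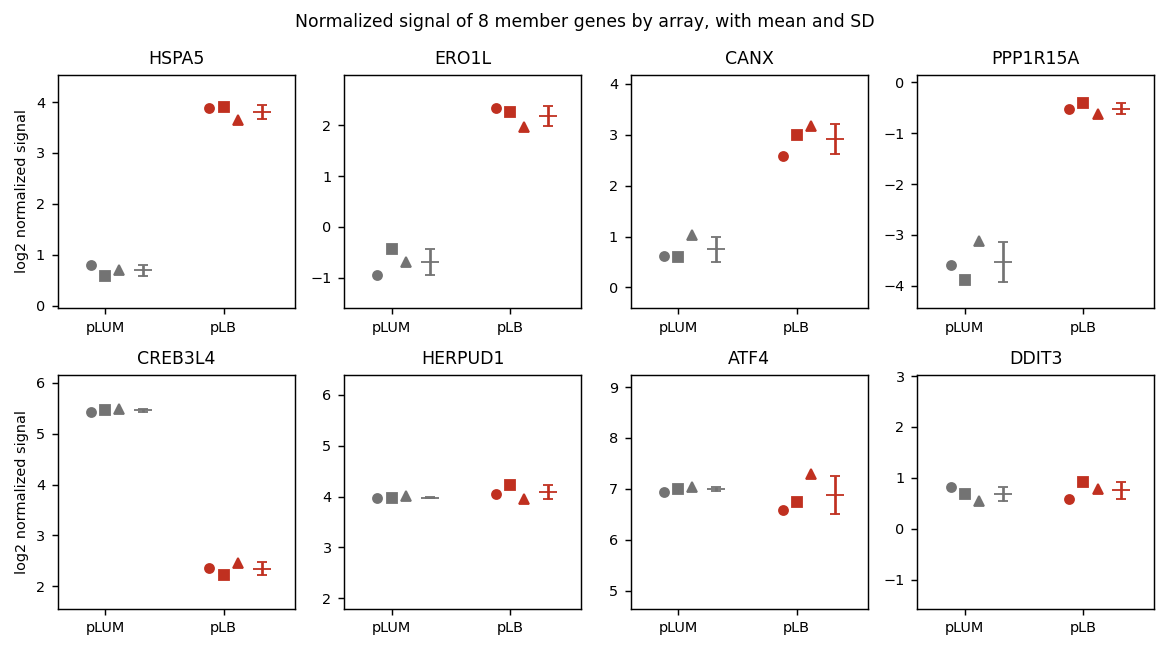
Normalized signal (log2) of 8 genes on each array, with mean and SD (n = 3 per line), on axes that span the same range; pLUM is grey and pLB is red. HSPA5, ERO1L, CANX and PPP1R15A are higher in pLB with no overlap, CREB3L4 is lower, and HERPUD1, ATF4 and DDIT3 overlap between lines.

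Chaperones and their cochaperones formed the largest group of genes that rose, with 7 of 9 called higher and a median log2 fold change of 1.51. HSPA5, the ER chaperone BiP and the classical reporter of ER stress, read 0.80, 0.58 and 0.69 in pLUM and 3.88, 3.91 and 3.66 in pLB. No pLUM array came near the pLB arrays, and HSPA5 was 8.70-fold higher, the largest fitted increase among the 40 genes (log2 change 3.12, 95% interval 2.74 to 3.50, adjusted p = 5.73e-06). The J-domain cochaperones of BiP followed in part. DNAJC3 read -0.27, -0.45 and -0.54 in pLUM and 1.77, 1.99 and 2.31 in pLB and was 5.44-fold higher, with no overlap (adjusted p = 3.85e-05). DNAJB11 read 2.26, 2.11 and 2.12 in pLUM and 3.64, 3.84 and 3.96 in pLB and was 3.14-fold higher, also with no overlap (adjusted p = 0.000113). DNAJB9, a cochaperone that also binds IRE1, read 0.20, 0.56 and 0.52 in pLUM and 1.24, 1.37 and 0.32 in pLB. One pLB array lay within the pLUM range, and DNAJB9 was not called (log2 change 0.55, 95% interval -0.15 to 1.25).

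SDF2L1, a partner of DNAJB11 that holds unfolded proteins in solution, read 4.20, 3.68 and 4.35 in pLUM and 5.96, 6.28 and 6.23 in pLB, and was 4.23-fold higher with no overlap (adjusted p = 0.000166). HYOU1, the large ER chaperone that recharges BiP with ATP, read -3.74, -3.79 and -3.46 in pLUM and -2.15, -2.07 and -2.32 in pLB. It was 2.80-fold higher (adjusted p = 0.000243), but its signals were low, and with normexp its log2 change dropped to 0.49 and was no longer called. MANF and CRELD2 are small ER proteins that are retained or secreted under stress. MANF read 3.54, 3.46 and 3.56 in pLUM and 5.35, 5.26 and 4.48 in pLB, and CRELD2 read 3.42, 3.12 and 3.33 in pLUM and 4.68, 4.91 and 4.38 in pLB. In both genes pLB replicate 3 was the lowest pLB array yet lay above every pLUM array, and the increases were 2.84-fold and 2.59-fold. HSP90B1, the ER member of the HSP90 family, read 6.45, 6.34 and 6.25 in pLUM and 7.33, 7.28 and 6.95 in pLB, which is 1.79-fold higher with no overlap and below the 2-fold threshold (adjusted p = 0.00442). Its separate probe read 0.55, 0.43 and 0.08 in pLUM and 1.39, 1.39 and 1.62 in pLB and was called, at 2.16-fold.

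The lectins CALR and CANX, which hold glycoproteins while they fold, were both called higher. CALR, the soluble lectin calreticulin, read 6.43, 6.35 and 6.50 in pLUM and 7.65, 7.66 and 7.68 in pLB. The replicates of each line lay close together, with a 2.36-fold increase (log2 change 1.24, 95% interval 0.89 to 1.58, adjusted p = 0.000287). With quantile normalization its log2 change was 0.90, just under 2-fold. CANX, the membrane-bound lectin calnexin, read 0.61, 0.59 and 1.04 in pLUM and 2.59, 2.99 and 3.18 in pLB. It was 4.50-fold higher with no overlap (95% interval of the log2 change 1.65 to 2.69, adjusted p = 0.000135). A dimmer CANX probe, at chr5:179158058-179158117 of hg19 whereas the brighter lies at chr5:179137006-179137065, read -3.83, -4.06 and -3.88 in pLUM and -3.67, -3.57 and -3.95 in pLB, with overlapping lines and a log2 change of 0.19. With the mean of both probes, CANX had a log2 change of 1.18.

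Disulfide isomerases and oxidases had a median log2 fold change of 1.73, and 4 of 6 were called higher. ERO1L (ERO1A in current nomenclature), the oxidase that recharges protein disulfide isomerase, read -0.94, -0.43 and -0.69 in pLUM and 2.34, 2.27 and 1.97 in pLB. It was 7.36-fold higher with no overlap (log2 change 2.88, 95% interval 2.41 to 3.35, adjusted p = 2.04e-05). Its paralog ERO1LB (ERO1B) read -2.53, -2.56 and -2.68 in pLUM and -2.06, -2.04 and -2.36 in pLB. The arrays of ERO1LB did not overlap either, but its log2 change was 0.44 (95% interval 0.04 to 0.83, adjusted p = 0.053), and it was not called. With normexp the log2 change of ERO1LB was 0.019. The isomerases PDIA4, PDIA6 and PDIA5 were 4.97-fold, 3.96-fold and 2.77-fold higher. PDIA4 read -0.16, 0.10 and 0.82 in pLUM and 2.57, 2.81 and 2.31 in pLB, with a wide spread in pLUM and no overlap. PDIA6 read -1.26, -0.94 and -0.80 in pLUM and 1.16, 0.98 and 0.82 in pLB, and PDIA5 read 0.50, 0.61 and 0.73 in pLUM and 2.01, 2.07 and 2.17 in pLB. P4HB, the abundant isomerase that is also a subunit of collagen prolyl hydroxylase, had close replicates at its brighter probe but a smaller difference. It read 5.97, 6.03 and 6.04 in pLUM and 7.04, 6.96 and 6.92 in pLB, 1.94-fold higher (adjusted p = 0.001) and thus just under the 2-fold threshold, whereas SEC61B, at 2.11-fold, was just above it. The dimmer P4HB probe read 1.04, 1.35 and 1.74 in pLUM and 2.84, 2.55 and 1.44 in pLB. Its lines overlapped, with a log2 change of 0.90 (adjusted p = 0.0752).

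None of the 9 ERAD genes was called, and their median log2 fold change was 0.15. This count depended on the setting. EDEM2 and DERL1 were called higher with spike-in scaling (1.15 and 1.08) and with slide as a block (1.06 and 1.05). EDEM2 was also called without pLB replicate 3 (1.03), and SEL1L with the probe of the smallest p (1.09). With normexp the log2 changes of EDEM2 and DERL1 were lower, at 0.77 and 0.36, and DERL1 no longer passed the adjusted p (0.261). HERPUD1, a stress-induced membrane protein that gathers the degradation complex, read 3.97, 3.97 and 4.00 in pLUM and 4.06, 4.23 and 3.96 in pLB. The lines overlapped, and the log2 change was 0.10 with a 95% interval of -0.26 to 0.47, so that a 2-fold difference in either direction lies outside it. SYVN1, the ubiquitin ligase of this complex, had a log2 change of 0.15 (95% interval -0.31 to 0.60). SEL1L, its scaffold, had one of 0.16 at its brightest probe (95% interval -0.26 to 0.59). The mannosidase-like proteins that select misfolded glycoproteins differed among themselves. EDEM2 read -0.80, -0.96 and -0.92 in pLUM and 0.17, 0.10 and -0.23 in pLB, 1.88-fold higher with no overlap (adjusted p = 0.00299), whereas EDEM1 and EDEM3 had log2 changes of -0.26 and -0.47 (adjusted p = 0.366 and 0.0594). At its brightest probe EDEM3 read 2.80, 2.85 and 2.49 in pLUM and 2.23, 2.08 and 2.43 in pLB, lower on every pLB array. Its dimmer probes had log2 changes of -0.30 and 0.34, and neither was called. Of the derlins, which help proteins leave the ER, DERL1 was 1.78-fold higher with no overlap, at -2.33, -2.52 and -2.72 in pLUM and -1.47, -1.75 and -1.84 in pLB. DERL2 and DERL3 overlapped between lines, with log2 changes of 0.06 and 0.22.

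SEC61B, the beta subunit of the translocon through which proteins enter the ER, read 2.38, 2.45 and 2.42 in pLUM and 3.52, 3.66 and 3.31 in pLB. It was called higher (2.11-fold, adjusted p = 0.000948), with no overlap, although its log2 change was 0.995 without pLB replicate 2 and 0.92 with quantile normalization. SSR1, a subunit of the translocon-associated protein complex, was measured by 3 probes that disagreed. The brightest, at chr6:7287804-7287863 of hg19, read 2.72, 2.64 and 2.48 in pLUM and 3.44, 3.35 and 2.93 in pLB and was 1.55-fold higher, below the threshold. The probe at chr6:7281589-7281648 read -0.04, -0.10 and 0.02 in pLUM and -1.60, -1.58 and -1.75 in pLB, and was called 3.03-fold lower in pLB. The probe at chr6:7289798-7289857 read -0.19, -0.14 and -0.29 in pLUM and 1.74, 1.77 and 1.53 in pLB, and was called 3.69-fold higher. SSR1 was thus the only one of the 40 genes with probes called in opposite directions.

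Of the 40 genes, 13 had more than 1 probe, and 11 had more than 1 tested probe. In SEL1L, a separate probe was called higher (2.13-fold) while the brightest and the dimmest were not (log2 changes 0.16 and -0.30). For CREB3L2, the dimmer probe had a log2 change of -0.29 with overlapping lines, against 0.51 for the brighter, and neither was called. For DNAJC3, the dim second probe had a log2 change of -0.52 (95% interval -1.91 to 0.88), and with the mean of both probes DNAJC3 was no longer called (0.96). The second DERL3 probe, with a log2 change of -0.86 and a 95% interval of -2.48 to 0.76, had too wide a spread to give a direction. The dimmer PDIA5 probe was 1.999-fold higher in pLB (adjusted p = 0.0441), just under the threshold, and was not called.

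**Figure D4:**
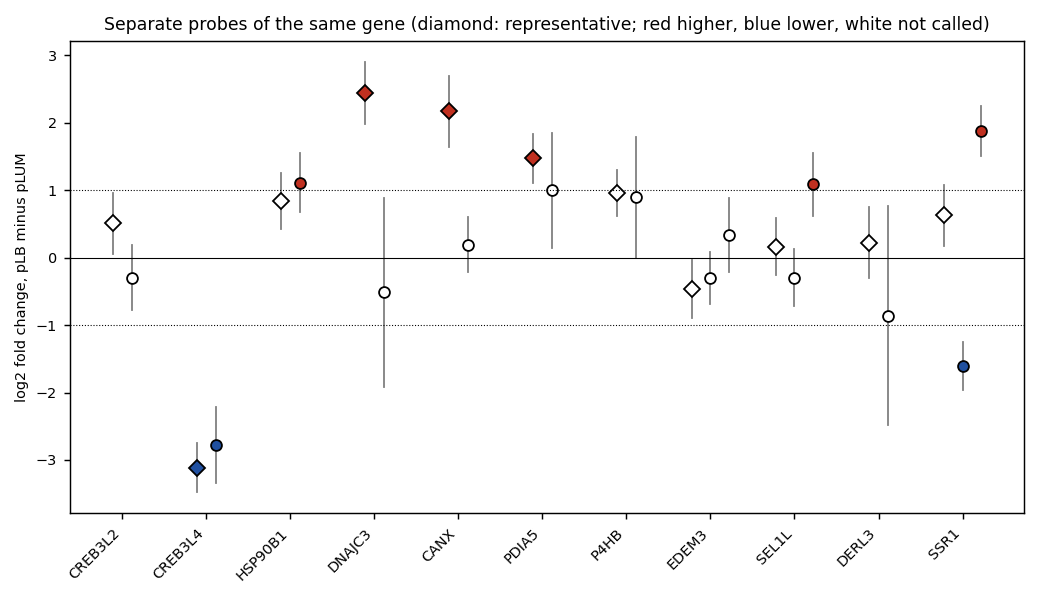
Log2 fold change (pLB minus pLUM) with its 95% interval for each tested probe of the genes with more than 1 tested probe; diamonds are the representative probes, red is called higher, blue is called lower and white is not called. Both CREB3L4 probes lie below -1, whereas the 3 SSR1 probes lie at 0.63, -1.60 and 1.88.

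Other genes of the same pathways were examined from lists that held 126 genes, of which 124 were tested. Of these 49 were called higher, 18 were called lower, and the median log2 fold change was 0.70. XBP1, the factor that IRE1 activates and also a luminal marker, was 9.92-fold lower in pLB. It read 6.21, 6.11 and 6.08 in pLUM and 2.94, 3.12 and 2.40 in pLB, with no overlap (adjusted p = 1.63e-05). Of the 103 promoter windows matched to these other genes, that of XBP1 was the only one with an ERSE, and none held ERSE-II. Among 18 regulators, XBP1 included, 5 were higher and 4 lower: MAP3K5, a stress kinase, was 9.56-fold higher, EIF2AK2, the RNA-activated relative of PERK, was 3.15-fold higher, and MBTPS2, a protease that cuts ATF6, was 3.01-fold lower. These counts include ERN2 among the higher and CREB3L3 among the lower, each well above background in a single line. Each thus passed the filter only through the line where it was brighter, and its values are a description. Their bounds, at least 1.70-fold and 1.61-fold, were under the 2-fold threshold. With normexp the direction of the ERN2 bound did not hold (log2 -0.30), whereas the bound of CREB3L3 was 1.70-fold. Of 25 ATF4 target genes, 13 were higher, led by the arginine transporter SLC7A1 (6.63-fold) and the stress cytokine GDF15 (6.02-fold), and 1 was lower, CEBPG (2.65-fold). Their median log2 fold change was 1.05, although ATF4 itself was not called.

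Of 35 further ER folding genes 15 were higher and 4 lower. The collagen chaperone SERPINH1 and the BiP exchange factor SIL1 were 7.75-fold and 6.40-fold higher, whereas the isomerase PDIA2 and the glycoprotein folding sensor UGGT2 were 7.31-fold and 5.83-fold lower. The 23 further ERAD genes were mixed, with 5 higher and 8 lower. The signal peptide peptidase HM13 and the ATPase VCP were 3.77-fold and 3.30-fold higher, whereas FAM8A1, a subunit of the SYVN1 complex, was at least 3.21-fold lower (2.11-fold with normexp) and the ubiquitin-conjugating enzyme UBE2J1 4.86-fold lower. Of 23 genes for translocation and glycosylation at the ER membrane, 11 were higher, with the oligosaccharyl transferase subunits TUSC3 at 7.03-fold and DDOST at 5.26-fold, and 1 was lower, SEC61A2 (7.17-fold). As a contrast outside the ER, 16 cytosolic and mitochondrial heat shock genes had a median log2 fold change of 0.90, close to that of the 40 genes. Of these 7 were higher, including BAG3 (at least 12.3-fold, or 2.21-fold with normexp) and HSPA4 (6.19-fold), and 1 was lower, HSPB8 (3.63-fold). BAG3 is a cochaperone of HSP70, HSPA4 is a cytosolic relative of HYOU1, and HSPB8 is a small heat shock protein. BAG3 was well above background in pLB only and FAM8A1 in pLUM only. Each thus passed the filter only through the line where it was brighter, and its place in these counts is a description.

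**Figure D5:**
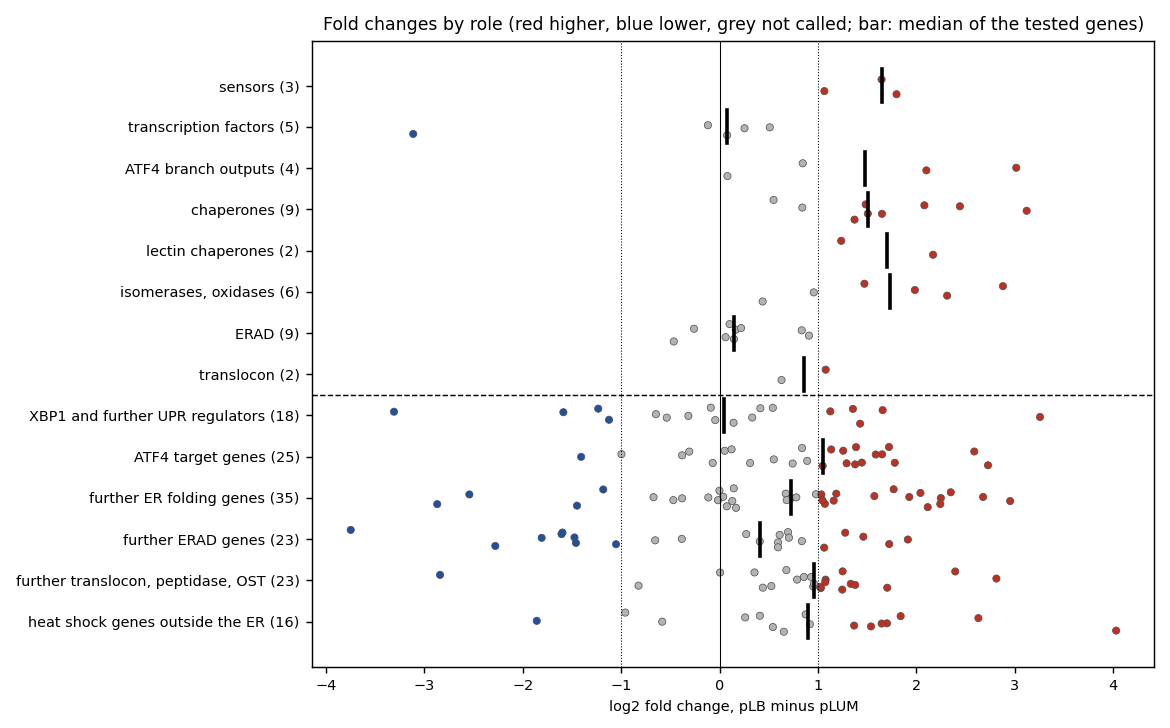
Log2 fold change (pLB minus pLUM) of each tested gene by role, the 40 genes above the dashed line and the other lists below it, with the number tested in parentheses, red for called higher, blue for called lower, grey for not called and a bar at the median. The bar lies at 1.51 for chaperones, 0.15 for ERAD genes and 0.08 for transcription factors.

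Line and hormone coincided on all 6 arrays, and their parts cannot be told apart; nor can a change in cell number and one in RNA per cell. Which CK5 fraction reached the arrays is not given in the sources used here. Luminal markers were lower in pLB for 9 of 10 genes and basal markers higher for 8 of 8. Of 7 fibroblast markers, 6 were undetected above background throughout pLUM and 5 throughout pLB, COL1A2 being detected in pLB, and their summed signal was 0.772 to 0.971 in pLUM and 0.791 to 1.15 in pLB times the 75th percentile. The summed signal of 5 immune markers was 1.04 to 1.73 in pLUM and 15.4 to 34.2 in pLB. CD79A made up most of this sum in pLB and was called higher, as was CD68, whereas PTPRC (log2 change -0.47, with another probe called lower) and CD14 (0.56) were not called and CD3E did not pass the filter. Of 4 endothelial markers, 3 were undetected above background throughout pLUM and 2 throughout pLB, and the sums were 0.0728 to 0.108 and 0.0937 to 0.207. The part of these markers in the results was not tested. Slide 1 carried pLB replicate 1 beside the 3 pLUM arrays, and slide 2 carried pLB replicates 2 and 3. Within slide 1, pLB replicate 1 lay above all pLUM arrays for 31 of the 40 genes, below all of them for 4 and among them for 5. The same count was not made over all genes, so that it is a description only and not a trait of the 40 genes. For pLB replicate 1 the difference from the pLUM mean was 3.19 for HSPA5, 3.03 for ERO1L and -3.10 for CREB3L4.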

How the data were processed

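Per the labels and methods, RNA from separate FACS sorts of pLUM (n = 3) and pLB (n = 3) was hybridized to 1-colour Agilent arrays. What the authors deposited is an intensity per spot, written by Agilent Feature Extraction 10.10.1.1, corrected for background within each array and not normalized between arrays, with flags for outliers and for signals well above background, and with gene names and hg19 positions. Partek is named in the submitters' processing notes; its output was not used here.

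For each array, the deposited intensity was scaled to the 75th percentile (449 to 869) and taken as log2. Control spots and outlier spots (296 to 387 per array) were dropped before repeated spots of a probe were averaged. No gene spot was saturated, and 21285 to 22775 probes per array were well above background. The 23105 probes that were well above background on 3 or more arrays entered lmFit and eBayes of limma 3.58.1 (R 4.3.3) with Benjamini-Hochberg adjustment. The fit was tested on simulated data with independent noise. The simulation held no slide effect and no background correction, so that it does not bear on either. A gene was represented by its tested probe with the highest mean. Every one of the 40 genes is named, and from each other list XBP1 and the 2 most changed called genes in either direction. These p-values measure the spread between sorts of one derivation per line, and the number of arrays limits the precision; with 3 arrays a line, the smallest two-sided p of an exact permutation test is 0.1. The 40 genes, the other lists, the marker lists and the motifs were chosen with earlier results of these data known. Promoter windows were those of RefSeq for GRCh38.p14, matched by transcript or symbol. Protein sequences and the position of probes within transcripts were not analysed here. Alternatives changed the background correction, scaling, filter, threshold, test, probe rule and blocks, and left out each array in turn.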

Additional observations from a re-analysis of the deposited data

How the results depend on the processing

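Across 20 alternatives, 17 to 25 of the 40 genes were called higher in pLB (19 as reported) and 1 was called lower; 14 genes kept their call in all alternatives in which they had a value, 6 were never called and kept their direction, and no gene turned direction while called in both settings. The median log2 fold change of the 40 genes, 0.93, was 0.74 with normexp background correction, 1.18 with spike-in scaling, 1.06 with slide as a block and 1.08 with the probe of the smallest p. Spike-in scaling and normexp moved the median of all genes by 0.24 and -0.24, respectively. When each array was left out in turn, 18 to 20 genes were called higher and 1 to 1 lower, the median ranged from 0.90 to 1.01, and 42 to 52 of the other pathway genes were called higher and 15 to 19 lower. Calls lost were those of ERN1, EIF2AK3 and HYOU1 with normexp, CALR (0.90) and SEC61B (0.92) with quantile normalization, DNAJC3 with the mean of its probes, EIF2AK3 without pLUM replicate 1 or pLB replicate 1, and SEC61B without pLB replicate 2. Calls gained were those of TRIB3 (1.09) and HSP90B1 (1.08) with spike-in scaling, P4HB with normexp (1.04), spike-in scaling (1.20) and slide as a block (1.02), EDEM2 and DERL1 with spike-in scaling (1.15 and 1.08) and slide as a block (1.06 and 1.05), EDEM2 without pLB replicate 3 (1.03), and HSP90B1 (1.11), SEL1L (1.09) and SSR1 (1.88) with the probe of the smallest p; without a fold threshold TRIB3, HSP90B1, P4HB, EDEM2, DERL1 and SSR1 were added. The cause was not tested. Directions turned for ERN1 (-0.071) and EIF2AK3 (-0.039) with normexp and, among genes not called, for ASNS (-0.15), HERPUD1 (-0.10) and DERL2 (-0.03) with quantile normalization, for ATF4 (0.12) with spike-in scaling, for DDIT3 (-0.11), ASNS (-0.082) and SEL1L (-0.10) with slide as a block, for DERL3 with the mean of its probes (-0.32) and with the probe of the smallest p (-0.86), and, on leaving out single arrays, for CREB3L1 without pLUM replicate 3 (range over the arrays left out -0.014 to 0.40), ATF4 without pLB replicate 1 (-0.33 to 0.025), DDIT3 without pLB replicate 2 (-0.00 to 0.17) and DERL2 without pLB replicate 1 or 2 (-0.025 to 0.23). The replicate numbers name separate sorts, and the deviations of arrays with the same number correlated at -0.27, -0.10 and -0.22, so that they were not used as pairs; with the replicate block 19 genes were called higher and 1 lower, with a median of 0.93. Under the slide block only pLB replicate 1, which shared a slide with pLUM, informs the difference.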
